A study of Arabidopsis thaliana with 6 samples.

Results

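The 31 probe sets described here are the first block of the Affymetrix ATH1 array, numbered 244901 to 244931, a block known to hold genes and open reading frames of the Arabidopsis thaliana mitochondrial genome. They were taken by number, whatever their suffix, from 22810 probe sets on the array, and 0 of them were listed under a chloroplast gene, so all 31 were kept. A probe set is a group of short probes that together give 1 signal for a transcript. Root RNA of 7-day-old seedlings, grown on vertical plates, had been hybridised to 6 arrays: 2 of an RXR1 overexpressor, 2 of an rxr1 mutant and 2 of wild type. RXR1 is known as a repressor of root hair growth, and the study compared roots with more or less of it with wild-type roots. The promoter of the overexpressor, the allele of the mutant, the number of independent lines and the ecotype were not given in the sources used here. RXR1 had no named probe set, so its own level could not be used to check the labels. The labels do not say whether the 2 arrays of a genotype came from separate plants, so the p-values cover only the variation among arrays, some or all of which may be technical.

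The mitochondrial genome of plants keeps genes for core subunits of the respiratory chain complexes and of ATP synthase, for proteins that mature cytochromes c, for ribosomal proteins, and for a maturase that helps splice introns. Most other mitochondrial proteins are made from nuclear genes and imported. In plant mitochondria most stable messenger RNAs carry no long poly(A) tail, and added tails mark RNA for decay, whereas the labelling kit named for these arrays starts cDNA from oligo(dT). In whole roots, fewer cells of a type, fewer mitochondrial transcripts per cell and a different share of tailed transcripts cannot be told apart in such a signal.

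The annotation of the array, with symbols taken from the TAIR10.1 assembly's gene table, gave 7 of the 31 members 1 gene of the mitochondrial genome. The complex I genes nad4 (244929_at) and nad4L (244902_at) encode subunits of the membrane arm of NADH dehydrogenase, and nad7 (244925_at) encodes a subunit of its matrix arm. Both ccmFN1 (244912_at, listed as ccb382) and ccmFN2 (244919_at, listed as ccb203) encode parts of the machinery that attaches heme to cytochromes c. The gene matR (244926_s_at) encodes a maturase and lies within an intron of nad1, and mttB (244928_s_at, listed as orfX) encodes a TatC-like membrane protein of twin-arginine translocation. These genes stand in the gene table in the reverse order of their probe numbers for 7 of 7 members. A further 3 members were listed under loci of chromosome 2 (AT2G07751 for 244920_s_at, AT2G07674 for 244922_s_at and AT2G07776 for 244927_at). That chromosome carries a large nuclear insertion of mitochondrial DNA in Arabidopsis, so signal from a nuclear copy and from the organelle cannot be told apart for them. Whether the other members also match copies in that insertion was not checked, so the same limit may hold for them. The other 21 members had no listed gene and are called by their numbers. The suffix _s_at, for probes that match several related transcripts, was carried by 8 members and the plain suffix _at by 23.

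Signals are given as log2 of the authors' RMA signal, in which a difference of 1 is a doubling. Most members were dim. Averaged over the 6 arrays, 26 members lay below the median of all probe sets, 6.78, and 5 lay above it. These 5 were 244912_at (ccmFN1), 244903_at, 244929_at (nad4), 244920_s_at and 244921_s_at. The member means ran from 3.32 to 9.67 with a median of 4.58, and the median member stood at percentile 24.6 of the signals on its array. The dimmest members were 244911_at, with 3.34 and 3.20 in the overexpressor, 3.37 and 3.36 in the mutant and 3.40 and 3.26 in wild type, and 244918_at, with 3.72 and 3.65 in the overexpressor, 3.58 and 3.60 in the mutant and 3.59 and 3.71 in wild type. No detection calls were used here, so it is not known which dim members were above background. Signals of different probe sets depend on their probes and say nothing of the relative amounts of their transcripts. Over all probe sets wild-type replicate 2 stood apart, with correlations of log2 signals of 0.9909 to 0.9932 with the other 5 arrays, against 0.9960 to 0.9979 among those 5. Without wild-type replicate 2, 0 of the 31 members were called in any comparison, the median for the overexpressor against wild type was 0.09, and 19 members had a positive difference.

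**Figure D1:**
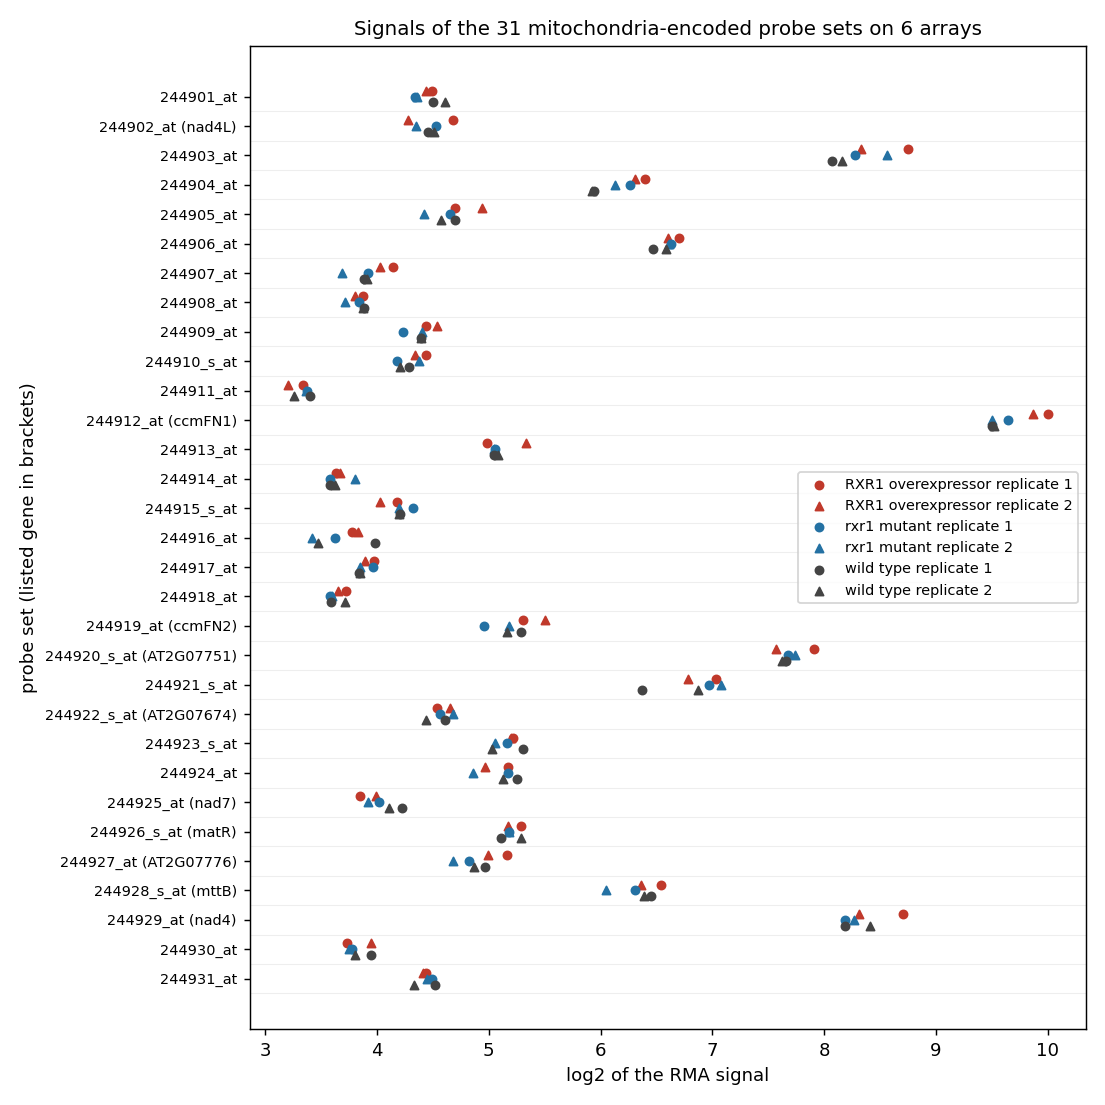
Log2 RMA signal (horizontal axis) of each of the 31 mitochondria-encoded probe sets (rows) on the 2 overexpressor arrays, the 2 mutant arrays and the 2 wild-type arrays. Circles are replicate 1 and triangles replicate 2. Most members lie near or below 5, and ccmFN1 is the brightest, with a mean of 9.67.

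The first comparison asked whether mitochondria-encoded transcripts differed between overexpressor and wild-type roots. The brightest member, 244912_at (ccmFN1), read 10.00 and 9.87 in the overexpressor, against 9.50 and 9.52 in wild type. Both overexpressor arrays were thus above both wild-type arrays, and above the mutant arrays as well. The difference was 0.42 ± 0.0962 (standard error, n = 2 arrays each; 95% interval 0.20 to 0.65), which is 1.34-fold. In the limma fit over all 22746 probe sets that were not controls, with all p-values adjusted by the Benjamini-Hochberg method, it did not pass the threshold of 0.05 (adjusted p = 0.221). The unnamed 244904_at read 6.40 and 6.31 in the overexpressor, against 5.94 and 5.92 in wild type. Its arrays also separated by genotype without overlap, and the difference was 0.42 ± 0.0919 (limma adjusted p = 0.206). Its neighbour on the list, 244903_at, read 8.75 and 8.33 in the overexpressor, against 8.07 and 8.16 in wild type. The groups did not overlap, but the 2 overexpressor arrays lay 0.42 apart, about as far as the difference of 0.43 ± 0.156 between the genotypes (limma adjusted p = 0.374).

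The complex I members did not share a direction in this comparison. Signals of nad4 were 8.71 and 8.31 in the overexpressor and 8.19 and 8.41 in wild type. The groups overlapped, with a difference of 0.21 ± 0.146 (limma adjusted p = 0.604). The dim nad7 probe set read 3.85 and 3.99 in the overexpressor, against 4.22 and 4.11 in wild type. Both of its overexpressor values were below both wild-type values, and this was the most negative difference among the 31 members (−0.25 ± 0.0967, 95% interval −0.47 to −0.02, limma adjusted p = 0.398). For nad4L the signals were 4.68 and 4.28 in the overexpressor and 4.46 and 4.51 in wild type, with a difference of 0.00 ± 0.141.

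The other members with a known product gave differences no larger than 0.18. The second heme-attachment gene on the list, ccmFN2, read 5.31 and 5.50 in the overexpressor, against 5.29 and 5.16 in wild type (0.18 ± 0.116, limma adjusted p = 0.567). Its overexpressor arrays were above both wild-type arrays, by a small margin in replicate 1. The maturase matR read 5.29 and 5.17 in the overexpressor, against 5.11 and 5.29 in wild type, and mttB read 6.54 and 6.36 in the overexpressor, against 6.45 and 6.39 in wild type. Both overlapped between the genotypes, with a difference of 0.03 for each.

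**Figure D2:**
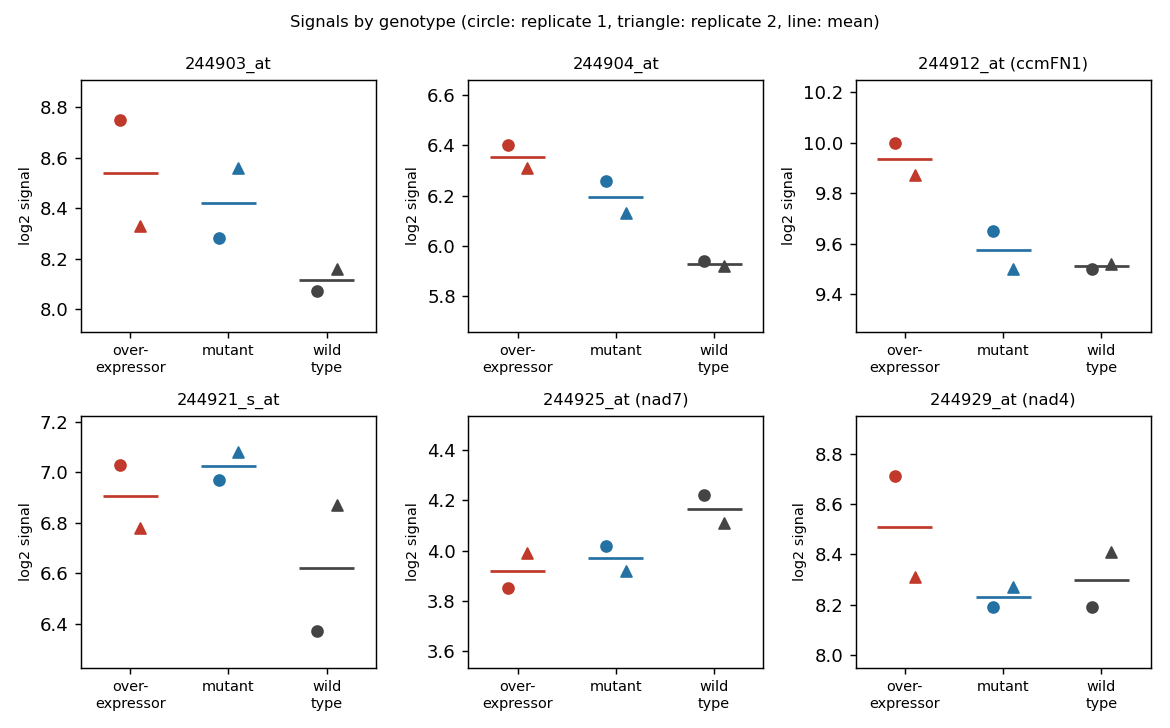
Log2 RMA signal (vertical axes, each spanning 1 log2 unit) of 6 probe sets in the overexpressor, the mutant and wild type, with 1 point per array and a line at the mean of 2 arrays. In the panel of ccmFN1 the overexpressor arrays (10.00 and 9.87) lie above all 4 other arrays, and in the panel of 244921_s_at the wild-type arrays lie far apart (6.37 and 6.87).

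Of the 31 members, 0 were called higher or lower in the overexpressor than in wild type, where 0.101% of all probe sets were called (23 of 22746). At an unadjusted limma p under 0.05 there were 4 members (12.9%), against 11.8% of all probe sets, so the members' share was near the background. These were 244903_at, 244904_at and ccmFN1 with higher signals (background 5.36%) and nad7 with a lower one (background 6.48%). Without overexpressor replicate 1, 2 members were at that p. The difference was positive for 22 members (71.0%), against 51.6% of all probe sets. The overexpressor arrays were all above the wild-type arrays for 12 members (background 21.6%) and all below for 3 (background 19.8%). The median difference was 0.08, against 0.01 over all probe sets, and the members ran from −0.25 to 0.43. Members are not independent measurements of 1 effect, since they share arrays and RNA and some share transcripts. Among the 31 members the 95% intervals reached from −0.47 to 0.79, so the widest allowed a 1.73-fold change, and their median half-width was 0.239.

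Leaving out wild-type replicate 1 gave calls for 2 of the 31 members, 244904_at (0.43, limma adjusted p = 0.0286) and ccmFN1 (0.41, limma adjusted p = 0.0411). In that fit 3790 of 22746 probe sets were called, and the lone wild-type array was assumed to vary like the arrays of the other genotypes. Over the settings that kept the probe set (the filter on dim probe sets leaves out 244904_at), the limma adjusted p ran from 0.0286 to 0.934 for 244904_at and from 0.0411 to 0.934 for ccmFN1.

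The second comparison set the rxr1 mutant against wild type. The largest difference was that of 244921_s_at, an unnamed member with 6.97 and 7.08 in the mutant, against 6.37 and 6.87 in wild type. The mutant arrays were both above the wild-type arrays, but the wild-type arrays were 0.50 apart, so that the difference of 0.41 ± 0.171 (limma adjusted p = 0.533) was smaller than the gap within wild type. Without wild-type replicate 1 it was 0.15, and without wild-type replicate 2 it was 0.66. In the overexpressor the same probe set read 7.03 and 6.78, which overlapped wild type, with a difference of 0.28 ± 0.171 (limma adjusted p = 0.548).

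The adjacent members 244903_at and 244904_at were above wild type in the mutant as well. For 244904_at the mutant arrays read 6.26 and 6.13, against 5.94 and 5.92 in wild type, a difference of 0.26 ± 0.0919 (95% interval 0.05 to 0.48, limma adjusted p = 0.524). For 244903_at they read 8.28 and 8.56, against 8.07 and 8.16 in wild type, a difference of 0.31 ± 0.156 (limma adjusted p = 0.569). The 2 wild-type arrays are the same ones in both comparisons, so the values of the lines are not independent of each other. In the direct comparison of the overexpressor with the mutant these probe sets differed by 0.16 for 244904_at and 0.12 for 244903_at.

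Members with lower signals in the mutant included mttB, which read 6.31 and 6.05 in the mutant, against 6.45 and 6.39 in wild type. All mutant values were below the wild-type values, and the difference was −0.24 ± 0.117 (limma adjusted p = 0.555). The unnamed 244901_at read 4.34 and 4.36 in the mutant, against 4.50 and 4.61 in wild type, again without overlap (−0.21 ± 0.0864, limma adjusted p = 0.533). The complex I subunit nad7 read 4.02 and 3.92 in the mutant, against 4.22 and 4.11 in wild type (−0.19 ± 0.0967, limma adjusted p = 0.564). By contrast, nad4 at 8.19 and 8.27 in the mutant, nad4L at 4.53 and 4.35, and matR at 5.18 and 5.18 lay within or close to the wild-type range, with differences of −0.07, −0.05 and −0.02. The heme-attachment gene ccmFN1, at 9.65 and 9.50 in the mutant, differed from wild type by 0.06 ± 0.0962, and ccmFN2, at 4.96 and 5.18, by −0.16 ± 0.116.

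In this comparison 0 of the 31 members were called, and 0.0044% of all probe sets were (1 of 22746). At an unadjusted limma p under 0.05 there were 3 members, 244904_at and 244921_s_at with higher signals (background 4.99%) and 244901_at with a lower one (background 4.33%). Together they were 9.68% of the members, against 9.33% of all probe sets. Leaving out either mutant array, or either overexpressor array, left 1 member at that p. Of the 31 differences 13 were positive (41.9%, against 48.4% of all probe sets). The mutant arrays were all above the wild-type arrays for 5 members (background 19.1%) and all below for 6 (background 19%). The median was −0.05, against −0.01 over all probe sets, and the members ran from −0.24 to 0.41. The 95% intervals reached from −0.59 to 0.81, or 1.75-fold at the widest.

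In the comparison of the overexpressor with the mutant, the heme-attachment genes came first. The ccmFN1 signals of 10.00 and 9.87 in the overexpressor, against 9.65 and 9.50 in the mutant, differed by 0.36 ± 0.0962 (95% interval 0.13 to 0.58, limma adjusted p = 0.628). Those of ccmFN2, 5.31 and 5.50 in the overexpressor, against 4.96 and 5.18 in the mutant, differed by 0.34 ± 0.116 (95% interval 0.07 to 0.61, limma adjusted p = 0.847). For both genes the 2 overexpressor arrays were above the 2 mutant arrays. Next was 244927_at, listed under a chromosome 2 locus, with 5.16 and 4.99 in the overexpressor, against 4.82 and 4.68 in the mutant (0.33 ± 0.103, limma adjusted p = 0.786). Its wild-type arrays, at 4.97 and 4.87, lay between the lines.

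The unnamed dim members 244916_at and 244905_at followed. For 244916_at the overexpressor arrays read 3.78 and 3.83, against 3.62 and 3.42 in the mutant (0.29 ± 0.165, limma adjusted p = 0.999). The wild-type arrays of that probe set were farther apart than the lines, at 3.98 and 3.47. For 244905_at the overexpressor arrays read 4.70 and 4.94, against 4.65 and 4.42 in the mutant (0.28 ± 0.124, limma adjusted p = 0.995), with 4.70 and 4.57 in wild type. The TatC-like mttB differed by 0.27 ± 0.117 and nad4 by 0.28 ± 0.146, both without overlap of the arrays. The differences of nad7, nad4L and matR were −0.05, 0.04 and 0.06.

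Again 0 of the 31 members were called, and 0.0132% of all probe sets were (3 of 22746). At an unadjusted limma p under 0.05 there were 4 members, all higher in the overexpressor: ccmFN1, ccmFN2, 244927_at and 244907_at, the last of which is named because its values were seen (0.28 ± 0.107). They made up 12.9% of the members, against 2.31% of all probe sets with higher signals at that p, 2.73% with lower ones and 5.05% in either direction. This count was 2 without overexpressor replicate 1, 1 without mutant replicate 2, and 7 without either of the wild-type arrays. The difference was positive for 24 members (77.4%, against 51.4% of all probe sets). The overexpressor arrays were all above the mutant arrays for 13 members and all below for 3 (background 20.3% in each direction). The median was 0.09, against 0.00 over all probe sets, and it ran from 0.06 without overexpressor replicate 1 to 0.13 without overexpressor replicate 2. The members ran from −0.15 to 0.36, and the 95% intervals from −0.53 to 0.67, or 1.60-fold at the widest.

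**Figure D3:**
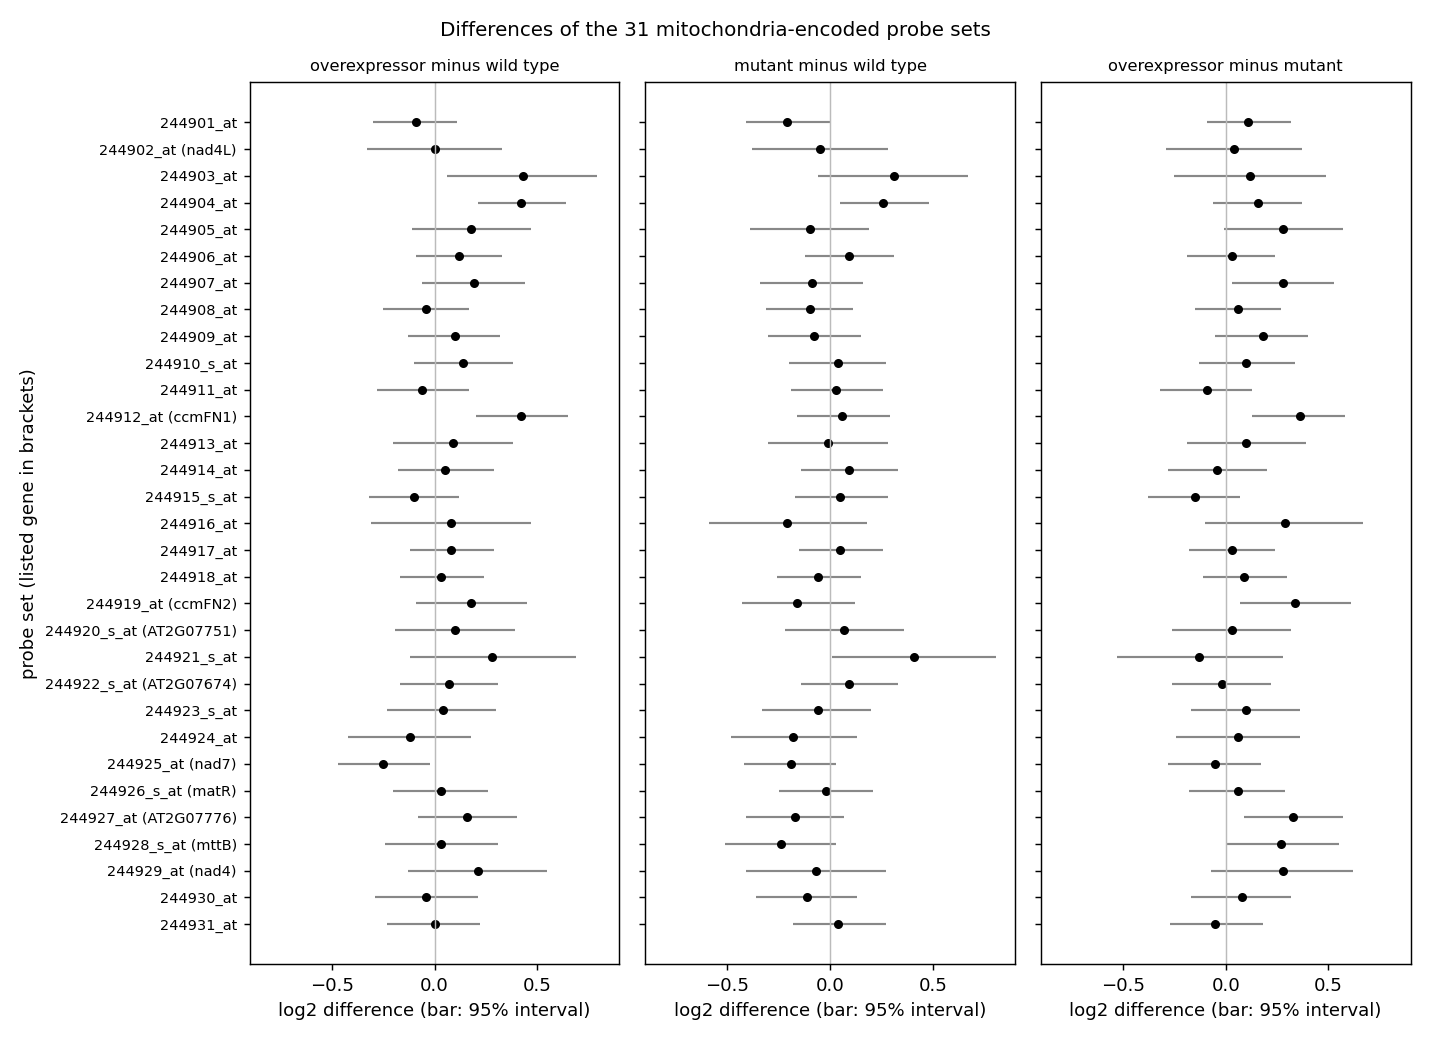
Log2 differences (points) with 95% intervals (bars, not adjusted for the number of probe sets) of the 31 mitochondria-encoded probe sets for the overexpressor minus wild type, the mutant minus wild type and the overexpressor minus the mutant. Points lie between −0.25 and 0.43, −0.24 and 0.41, and −0.15 and 0.36 in the 3 panels, and 0 members were called in any of them.

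The 5 members above the median signal and the 26 below it had different medians, and whether they differ was not tested. Against wild type, the overexpressor's median difference was 0.28 for the 5 and 0.04 for the 26. The mutant's medians were 0.07 and −0.06, and those of the overexpressor against the mutant were 0.12 and 0.08. With each array left out in turn, the value for the 5 members ran from 0.12 to 0.43 for the overexpressor against wild type, the lowest without wild-type replicate 1 and the highest without wild-type replicate 2, and it was 0.16 without overexpressor replicate 1. For the mutant against wild type it ran from 0.07 to 0.14, the highest without mutant replicate 2. For the overexpressor against the mutant it was −0.09 without overexpressor replicate 1 and 0.33 without overexpressor replicate 2, and it was 0.00 without mutant replicate 1 and 0.26 without mutant replicate 2. The replicate spread of these 5 was widest in the overexpressor, with a median standard deviation of 0.244, against 0.076 in the mutant and 0.0591 in wild type. The root mean square of these standard deviations, which weighs wide gaps more, was 0.232 in the overexpressor, 0.108 in the mutant and 0.177 in wild type. Over all 31 members the median standard deviations were 0.0952 in the overexpressor, 0.0881 in the mutant and 0.0745 in wild type. Over all probe sets wild type was widest, with medians of 0.0556 in the overexpressor, 0.0634 in the mutant and 0.112 in wild type.

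A single array stood out among the members. Overexpressor replicate 1 gave the highest of the 6 signals for 14 of the 31 members (45.2%), against 14.3% of all probe sets, and for 4 of the 5 brighter ones. Among the brighter members nad4 read 8.71 on that array and at most 8.41 elsewhere, 244903_at read 8.75 and at most 8.56 elsewhere, and 244920_s_at read 7.91 and at most 7.74 elsewhere. It was also highest for nad4L, mttB, 244904_at and ccmFN1, but it was the lowest array for nad7. For matR it was highest only before rounding, with 5.29 both there and on wild-type replicate 2. Centred on its mean over the 6 arrays, the median member was at 0.078 on overexpressor replicate 1, 0.010 on overexpressor replicate 2, −0.023 and −0.047 on the mutant arrays, and −0.007 and −0.023 on the wild-type arrays. Wild-type replicate 1 had the highest signal for 8 members (25.8%, against 19.7% of all probe sets). It had the lowest for 8 others (25.8%, against 14.3%).

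Signals of control probe sets were looked at after the member values had been seen. All 12 control probe sets for Bacillus transcripts were highest on overexpressor replicate 1, with a median of 0.31 above their 6-array mean, against −0.07 on overexpressor replicate 2. The mutant arrays stood at −0.26 and 0.02 and the wild-type arrays at −0.14 and 0.13. The 25S ribosomal RNA control was higher on both overexpressor arrays than on the other 4, and read 12.43 and 12.37 in the overexpressor, 12.19 and 12.27 in the mutant and 12.18 and 12.27 in wild type. For actin, a control for how complete the labelled RNA was, the 3′ signal exceeded the 5′ signal by 1.21 and 1.11 in the overexpressor, 1.29 and 1.19 in the mutant and 1.39 and 1.40 in wild type. The values of the overexpressor and of the mutant were thus below those of wild type without overlap. For GAPDH that excess was 0.25 and 0.29 in the overexpressor, 0.36 and 0.15 in the mutant and 0.37 and 0.28 in wild type, so the genotypes overlapped. For the Arabidopsis actin control it was 3.18 and 3.02 in the overexpressor, 3.22 and 3.32 in the mutant and 3.32 and 3.36 in wild type. There too the overexpressor values were below those of wild type without overlap. The part of these values in the member signals was not tested.

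**Figure D4:**
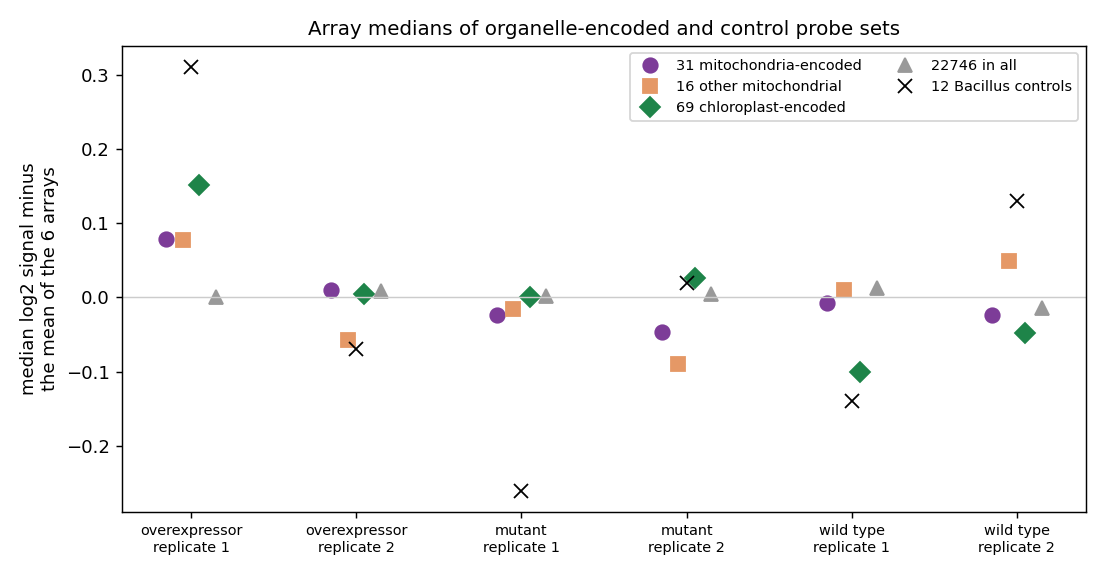
Median log2 signal on each array minus the mean of the 6 arrays (vertical axis), for the 31 mitochondria-encoded probe sets, 16 other mitochondrial, 69 chloroplast-encoded, all 22746 probe sets and 12 Bacillus controls. On overexpressor replicate 1 the members stood at 0.078 and the Bacillus controls at 0.31.

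Another 16 probe sets elsewhere on the array were listed under a single mitochondrial gene. They covered 9 genes, among them nad1 with 7 probe sets, nad2, nad5, nad6 and nad9 of complex I, cox1 and cox2 of cytochrome c oxidase, and ccmB and ccmFC of cytochrome c maturation. Their median difference was −0.01 for the overexpressor against wild type, where the members had 0.08, and 0 were called. A positive difference was found for 7 of the 16. Overexpressor replicate 1 gave the highest signal for 43.8% of the 16, near the 45.2% of the members, against 14.3% of all probe sets. The nad2 probe set 257331_at was the 1 with an unadjusted limma p under 0.05, at 4.57 and 4.67 in the overexpressor, against 5.30 and 4.80 in wild type (−0.43 ± 0.17, limma adjusted p = 0.403). For the mutant against wild type the median was −0.08 and for the overexpressor against the mutant 0.08, beside the members' −0.05 and 0.09. With each array left out these medians ran from −0.08 to 0.04 for the overexpressor against wild type, from −0.11 to −0.07 for the mutant against wild type, and from −0.01 (without overexpressor replicate 1) to 0.16 (without overexpressor replicate 2) for the overexpressor against the mutant. Whether the members and these probe sets differ was not tested.

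The chloroplast-encoded probe sets, which report the plastid genome, had larger medians against wild type. The share of green plastids in the samples was not tested. Of 69 such probe sets, 59 had a positive difference in the overexpressor (85.5%, against 51.6% of all probe sets), with a median of 0.15, and 0 were called, the lowest limma adjusted p being 0.0833. At an unadjusted limma p under 0.05 there were 19, all higher (27.5%, against 5.36% of all probe sets with higher signals at that p). The median was 0.09 without overexpressor replicate 1, which gave the highest signal for 44 of the 69, and 0.24 without overexpressor replicate 2. In the mutant the median against wild type was 0.10, and 0.06 without wild-type replicate 1. For the overexpressor against the mutant it was 0.07, but −0.02 without overexpressor replicate 1 and 0.14 without overexpressor replicate 2. The mitochondria-encoded members had −0.05 in the mutant.

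Nuclear genes whose proteins join the mitochondria-encoded subunits in the respiratory complexes I to V were read from the same fit. Of 83 listed genes 45 were measured under a name, by 46 probe sets, and 0 were called in any comparison. Their median was −0.03 for the overexpressor against wild type (16 of 46 positive), 0.05 for the mutant against wild type (34 of 46 positive) and −0.07 for the overexpressor against the mutant (2 of 46 positive). With each array left out these medians ran from −0.06 to 0.00, from 0.04 to 0.07 and from −0.10 to −0.04, in the order of those comparisons. The members' medians for the same comparisons were 0.08, −0.05 and 0.09. Of all probe sets 51.6%, 48.4% and 51.4% had a positive difference, in the same order. Most of the 46 nuclear probe sets had mean signals above that of the brightest member, 9.67, whereas most members were dim. SDH1-2, a flavoprotein subunit of succinate dehydrogenase, had the nuclear list's clearest difference, with 5.66 and 5.45 in the overexpressor, against 5.88 and 6.01 in wild type (−0.39 ± 0.114, limma adjusted p = 0.291). The same overexpressor values, against 6.06 and 5.90 in the mutant, differed by −0.42 ± 0.114 (limma adjusted p = 0.625). The mean of SDH1-2, 5.83, was below the median of all probe sets. The far brighter SDH1-1 (mean 11.10) differed by 0.06 ± 0.0879 between overexpressor and wild type (limma adjusted p = 0.806).

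Other nuclear lists that bear on mitochondria gave 0 calls as well. Of 23 genes for mitochondrial transcription, RNA processing and DNA maintenance, 6 were measured under a name. Their medians were 0.19 for the overexpressor and 0.10 for the mutant, each against wild type. All 6 had their lowest signal on wild-type replicate 2, the array that stood apart. Without it the medians were 0.12 for the overexpressor and 0.00 for the mutant, and without wild-type replicate 1 they were 0.29 and 0.19. Among them AT5G14580, known as a mitochondrial polynucleotide phosphorylase that trims and degrades RNA, read 7.12 and 6.97 in the mutant, against 6.80 and 6.41 in wild type (0.44 ± 0.139, limma adjusted p = 0.524). AT5G15700, known as an organelle RNA polymerase, read 5.88 and 5.77 in the overexpressor, against 5.65 and 5.42 in wild type (0.29 ± 0.111, limma adjusted p = 0.393). OSB1, a single-stranded DNA binding protein of mitochondria, read 6.91 and 6.95 in the overexpressor, against 6.77 and 6.63 in wild type (0.23 ± 0.0887, limma adjusted p = 0.393). The values of AT5G15700 and OSB1 did not overlap between these genotypes.

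For alternative respiration, 5 of 14 listed genes were measured under a name. Their medians were −0.02 for the overexpressor and 0.02 for the mutant, each against wild type. Those medians ran from −0.11 to −0.01 and from −0.05 to 0.07 as each array was left out. Of 14 genes that respond to mitochondrial dysfunction, 7 were measured under a name, with medians of −0.03 and 0.00. The external NADH dehydrogenase NDB2, which is in both lists, read 9.05 and 8.88 in the overexpressor, against 9.26 and 9.26 in wild type (−0.29 ± 0.111, limma adjusted p = 0.382).

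Marker genes gave a narrow view of the tissue. Both root markers read here are root hair genes, and RXR1 is known as a repressor of root hair growth. Their values therefore do not show the share of root tissue in a sample. Of 10 root markers 2 were measured under a name, the root hair expansins EXPA7 and EXPA18. EXPA7 read 7.58 and 7.71 in the overexpressor, against 8.42 and 8.40 in wild type (−0.76 ± 0.0921, limma adjusted p = 0.0526). EXPA18 read 7.93 and 8.15 in the overexpressor, against 8.70 and 8.82 in wild type (−0.72 ± 0.128, limma adjusted p = 0.127). Of 6 markers of green tissue 1 was measured under a name, RCA, the activase of Rubisco. It read 8.58 and 8.51 in the overexpressor, against 8.94 and 9.07 in wild type (−0.46 ± 0.101, limma adjusted p = 0.211). In the mutant RCA read 8.67 and 8.85 and EXPA7 read 8.17 and 8.29, both below wild type without overlap. Those differences were −0.24 ± 0.101 for RCA (limma adjusted p = 0.533) and −0.18 ± 0.0921 for EXPA7 (limma adjusted p = 0.569). EXPA18 overlapped between mutant and wild type, with a difference of −0.03. Of 4 markers of dividing cells 0 were measured under a name. The part of these cell types in the members' values was not tested.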

How the data were processed

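Total root RNA of 6 samples was labelled with an Affymetrix kit for 3′ in vitro transcription and hybridised to ATH1 arrays, per the labels' protocols. The authors deposited RMA signal intensity values on a linear scale, for which the submitters' processing notes name RMA and Affymetrix Expression Console, without a version. Array medians ran from 108 to 111 intensity units. The design assumed log2 values, so log2 was taken first, with no pseudocount. A second deposited copy of the intensity values differed by at most 5e-06. The authors' table of array correlations was not used.

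Of 22810 probe sets, 64 controls were left out. The annotation listed 1 gene for 13513 of the rest, several for 503 and none for 8730. The TAIR10.1 table gave names and gene order only; mitochondrial genes were matched by symbol. The other 22746 were fitted in R 4.3.3 by limma 3.58.1 (linear model and empirical Bayes step, with a mean for each genotype over the 6 arrays, two-sided, with 3 residual degrees of freedom and a prior worth 4.25), adjusted by Benjamini-Hochberg within each contrast. Errors are standard errors of the fit. The fit was also run on simulated data with independent noise and changes of 1 log2 unit. That run does not bear on differences as small as those of the members, or on an array that stands apart. The number of arrays limits the precision.

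The members and gene lists were chosen with earlier results of these data known. Values were given for members with a known product, the 5 largest differences per contrast, the 3 brightest and the 2 dimmest, and for lists up to 3 genes by the smallest p. Alternatives were another scaling, a filter on dim probe sets, a pseudocount, another variance model, array weights, the 4 arrays compared, the second copy, the suffix, the annotation, the replicate block and each array left out.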

Additional observations from a re-analysis of the deposited data

How the results depend on the processing

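With 2 arrays a group, differences as small as those of the 31 members were not called in the main fit. The counts of called members were 0 under every setting run, except 2 for the overexpressor against wild type without wild-type replicate 1 (range over the arrays left out 0 to 2). The cause of the changes below was not tested, except that a filter, suffix or annotation leaves fewer members. For the overexpressor against wild type, the members' median was 0.28 with the filter on dim probe sets (5 members, 5 positive), 0.04 with a pseudocount of 16, and 0.03 for members with 1 mitochondrial gene (5 of 7 positive). It ran from 0.07 to 0.09 with each array left out, and the count of positive differences from 19 to 24. For the mutant against wild type, the median was 0.00 with quantile normalization once more, 0.07 with the filter (4 of 5 positive) and −0.05 to −0.01 with each array left out (−0.01 without mutant replicate 2). Positive differences were 8 of 23 for the plain suffix, 1 of 7 for members with 1 mitochondrial gene, and 11 to 15 with each array left out. For the overexpressor against the mutant, the median was 0.05 with quantile normalization, 0.04 with the pseudocount, 0.27 for members with 1 mitochondrial gene (6 of 7 positive) and 0.06 to 0.13 with each array left out. Positive differences were 4 of 5 with the filter and 19 to 24 with each array left out. Values for single members were followed under these settings only for the 5 largest differences of each comparison. Of these values, 214 kept their direction and their side of the threshold, and the rest changed only in the fit without wild-type replicate 1. The members followed were chosen by size in these data and were not called in the main fit, so the count says little of other members. The main fit did not pair samples by replicate number, and whether those numbers mark pairs is not known. Deviations from the group means correlated at 0.125 between overexpressor and mutant, 0.0533 between overexpressor and wild type and 0.316 between mutant and wild type. With the replicate block, 0 members were called and the medians stayed at 0.08, −0.05 and 0.09, while calls over all probe sets were 167, 2 and 30, against 23, 1 and 3. With each array left out these calls ran from 0 to 3790, 0 to 2743 and 0 to 58, and with the 4 arrays compared they were 0, 0 and 58.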
